A study of Mus musculus with 10 samples.

Results

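Mitotic genes encode the proteins that carry a cell from the end of DNA replication through chromosome segregation to division, and 34 of them were read in every single-cell library of a study of spleen lymphocytes in BXD2 mice. All 34 were found among the 31053 genes of each matrix, and together they took 268430 of the 69958493 deposited unique molecular identifiers (UMIs), the tags that mark single RNA molecules. By role they were cyclins, Cdk1 and its phosphatase (5 genes), the anaphase-promoting complex (2), mitotic kinases and the spindle checkpoint (5), chromosomal passengers (3), kinetochore and centromere (4), spindle and motors (6), cytokinesis (5), chromosome structure (2), and 2 others, Cdca3 and Pif1.

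BXD2 is a recombinant inbred mouse strain that spontaneously makes germinal centers and autoantibodies. The mice compared were 3 BXD2-p19-/- mice (1 and 2 female, 3 male), which lack the p19 subunit of IL-23, and 2 female BXD2 WT mice. Each spleen gave 1 RNA library and 1 B cell receptor library made with the 10x 5' kit. The labels give no age, no sort and no preparation day, and they name both B and T cells although the design text speaks of germinal center (GC) B cells. Because Il23a, the gene of p19, had 0 UMIs in all 5 RNA libraries, WT included, its reads could not check the genotype labels, and male sex is confounded with 1 p19-/- mouse.

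In germinal centers, B cells divide rapidly in the dark zone and are selected in the light zone with the help of follicular helper T (Tfh) cells. Most mitotic genes are silent in resting cells, are held down in G1 by the DREAM repressor complex, and are switched on late in the cycle through 2 promoter elements, the cell cycle genes homology region (CHR) and CCAAT boxes bound by NF-Y. Cyclin B with Cdk1 starts mitosis, Plk1 and the Aurora kinases build and check the spindle, Cdc20 with the anaphase-promoting complex triggers the separation of chromatids, and Prc1, Kif23 and Ect2 organise the final cut between the daughter cells.

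Of the 34 genes, 29 had a start-site window in the RefSeq table of build GRCm38.p6, which runs from 250 bases before the start to 50 after. Ccna2, Aurkb, Tpx2, Pif1 and Kif20a are named only. The CHR letters TTTGAA, searched on both strands, were in the 300-base window of 22 of 29 members (75.9%), against 20.2% of all 27025 genes in the table. The letters CCAAT, also on both strands, were in 25 of 29 (86.2%), against 41.1% of all genes, and at least 2 copies were in 18 of 29 (62.1%), against 13.3%. Both motifs stood in the window of 21 members (72.4%) and of 7.97% of all genes, and a base could be shared by both motifs. These are letter matches, described without a test.

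The 250 bases before the start of 6 members are printed 5′ to 3′ with matches to either motif in capitals, because the results turn on these genes: Cdkn3 rose most in the dark zone, Cdc20 was found in cells with few and Top2a and Mki67 in cells with many S phase transcripts, Ube2c was among the members with most UMIs, and Birc5 was called by isotype. They lie at chr14:46760291-46760540 (+) for Cdkn3, chr4:118437344-118437593 (-) for Cdc20, chr11:99024190-99024439 (-) for Top2a, chr7:135716380-135716629 (-) for Mki67, chr2:164769679-164769928 (+) for Ube2c and chr11:117848987-117849236 (+) for Birc5.
Cdkn3: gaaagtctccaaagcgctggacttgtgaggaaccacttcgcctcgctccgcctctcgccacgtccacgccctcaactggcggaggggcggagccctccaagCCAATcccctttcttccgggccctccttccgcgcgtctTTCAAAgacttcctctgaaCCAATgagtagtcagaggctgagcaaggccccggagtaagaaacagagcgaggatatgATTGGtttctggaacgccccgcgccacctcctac
Cdc20: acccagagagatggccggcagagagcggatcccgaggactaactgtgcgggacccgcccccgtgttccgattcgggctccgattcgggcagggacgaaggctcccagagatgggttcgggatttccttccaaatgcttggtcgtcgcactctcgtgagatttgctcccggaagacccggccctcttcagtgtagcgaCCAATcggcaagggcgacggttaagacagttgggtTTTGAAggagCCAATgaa
Top2a: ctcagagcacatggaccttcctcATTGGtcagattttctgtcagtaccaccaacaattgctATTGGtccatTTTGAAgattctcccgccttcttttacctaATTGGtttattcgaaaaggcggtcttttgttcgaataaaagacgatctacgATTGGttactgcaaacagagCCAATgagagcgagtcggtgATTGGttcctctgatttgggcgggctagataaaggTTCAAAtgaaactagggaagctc
Mki67: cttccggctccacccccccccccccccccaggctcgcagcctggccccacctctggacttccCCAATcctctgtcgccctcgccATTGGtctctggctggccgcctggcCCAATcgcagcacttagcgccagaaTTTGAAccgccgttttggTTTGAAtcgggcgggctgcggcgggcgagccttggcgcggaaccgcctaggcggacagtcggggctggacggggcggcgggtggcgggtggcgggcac
Ube2c: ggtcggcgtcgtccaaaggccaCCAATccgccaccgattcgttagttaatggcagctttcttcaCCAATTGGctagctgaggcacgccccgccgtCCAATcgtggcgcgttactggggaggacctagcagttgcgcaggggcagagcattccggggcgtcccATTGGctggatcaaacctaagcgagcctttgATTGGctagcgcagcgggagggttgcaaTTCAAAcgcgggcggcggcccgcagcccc
Birc5: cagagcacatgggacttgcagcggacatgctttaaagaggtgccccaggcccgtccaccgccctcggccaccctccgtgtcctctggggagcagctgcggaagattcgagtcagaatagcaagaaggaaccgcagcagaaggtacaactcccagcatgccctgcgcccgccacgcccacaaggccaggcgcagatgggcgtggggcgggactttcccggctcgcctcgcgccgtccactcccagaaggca
Top2a and Ube2c each held 6 CCAAT matches before the start, Cdkn3 and Mki67 each 3, Cdc20 2 and Birc5 0. Top2a and Mki67 each held 2 TTTGAA matches there, Cdkn3, Cdc20 and Ube2c 1, and Birc5 0.

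The libraries held 1104 to 3226 barcodes and 7712457 to 18093053 UMIs each, and 9200 cells were kept. Libraries shared 3 to 11 barcodes per pair, at most 0.562% of the smaller library. Clusters were formed without the members and other cell cycle genes and named from marker lists as GC B-like (243 to 1073 cells per mouse), mature non-GC B-like (629), plasma cell-like (225), Tfh-like (985), Treg-like (935), effector CD4-like (747) and CD8 T-like (251). All 4 GC B-like clusters expressed all 9 GC B markers, but the 10 genes with the highest fold held GC B markers in 1 of them, while the other 3 were led by cell cycle genes such as Pclaf, Cdk1 and Mki67 or by biosynthesis genes such as Shmt1. The effector CD4-like cluster scored highest on naive T markers, above effector CD4 markers. It took its name from 2 of its 10 leading genes, Il7r and Cxcr3, and no cluster took this name with cell cycle genes kept in the clustering. The CD8 T-like cluster also held the NK gene Ncr1. The library p19-/- 1 stood apart with 891 of 2474 barcodes over the mitochondrial limit and 303 of the 395 cells of an unnamed B cluster led by Sox4 and Pcp4.

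Among the named lymphocyte classes, the 34 genes were most abundant in GC B-like cells. Their summed level there was 5909, 4844 and 5485 CPM (UMI counts scaled to the total of the class in each mouse) in p19-/- 1, 2 and 3, and 5863 and 6499 CPM in WT 1 and 2. Mature non-GC B-like cells held 1038, 1527 and 1585 CPM in the p19-/- mice, compared with 1236 and 2707 in the WT mice. The 2 WT mice thus differed from each other more than the genotypes did. Plasma cell-like cells ranged from 490 to 2594 CPM, Treg-like cells from 681 to 2071, effector CD4-like cells from 99.8 to 1414, Tfh-like cells from 116 to 749 and CD8 T-like cells from 162 to 2033. The lowest GC B-like value lay above every value of these 6 other classes, and the T cell classes overlapped each other. Macrophage or monocyte-like cells, which should divide little, held 81.7 to 460 CPM.

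To read single cells at one depth, each cell was thinned to 2000 UMIs (shallower cells left out) and called mitosis-like when it held UMIs of at least 5 of the 34 genes. In GC B-like cells 1462 of 2789 cells were mitosis-like. The share was 60.2%, 45.2% and 52.0% in p19-/- 1, 2 and 3, and 49.3% and 60.04% in WT 1 and 2. The highest and lowest shares were both in p19-/- mice, so the genotypes overlapped. The means were 52.5% ± 7.49 (SD, n = 3) and 54.6% ± 7.63 (SD, n = 2). The widest 95% exact binomial interval, which covers counting error only, ran from 53.4% to 66.7% in p19-/- 1. No gap separated the states: 11.04% of GC B-like cells held 3 or 4 of the genes and 15.3% held 5 to 7, while 37.1% held 8 or more and 14.2% none. Just below and at the limit were 146 cells with 4 and 136 with 5.

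**Figure D1:**
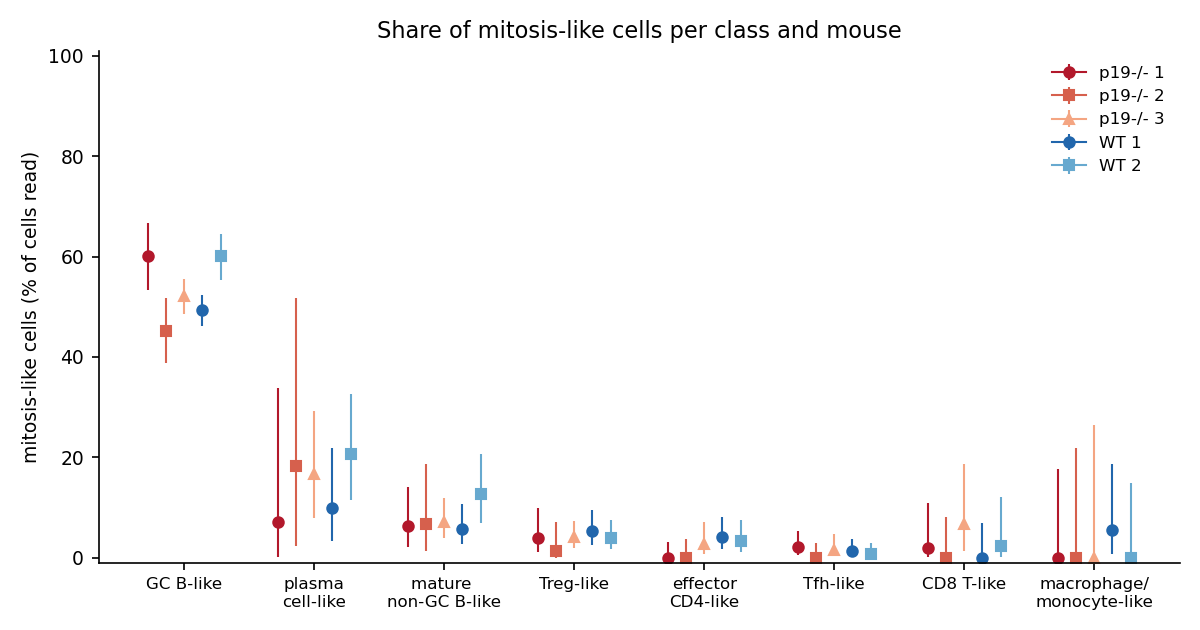
Share of mitosis-like cells (percent of cells read at 2000 UMIs, vertical axis from 0) per class and mouse, with 95% exact binomial intervals as bars; red shades are p19-/- mice and blue shades WT mice. GC B-like cells sit between 45.2% and 60.2%, above every other named lymphocyte class, and the genotypes overlap there.

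The other B lineage classes held fewer such cells. In plasma cell-like cells the share was 7.14%, 18.2% and 16.7% in p19-/- 1, 2 and 3 and 10.0% and 20.6% in WT 1 and 2, resting on 30 cells of 192. In mature non-GC B-like cells it was 6.33%, 6.82% and 7.10% in the p19-/- mice, compared with 5.77% and 12.6% in the WT mice, or 43 of 565 cells. Both classes overlapped between genotypes and with each other. The 30 mitosis-like plasma cell-like cells held 16612 CPM of plasma cell markers against 36258 CPM in the other plasma cell-like cells, and 1029 against 518 CPM of GC B markers. The 43 mitosis-like mature non-GC B-like cells held 284 CPM of GC B markers, close to the 257 CPM of the rest of their class.

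In T cells few cells lay near the limit. Among Treg-like cells, the regulatory T cells marked by Foxp3, 3.08% held 8 or more members while 0.984% held 5 to 7. Their mitosis-like share was 4%, 1.32% and 4.10% in p19-/- 1, 2 and 3 and 5.29% and 3.92% in WT 1 and 2. Tfh-like cells had the share 2.15%, 0% and 1.64% in the p19-/- mice, compared with 1.31% and 0.837% in the WT mice, and the 0 in p19-/- 2 allows up to 2.50%. Both classes overlapped between genotypes. Effector CD4-like cells had 0 mitosis-like cells in p19-/- 1 and p19-/- 2, which allows up to 2.63% and 3.12%, and 2.82% in p19-/- 3. Their WT shares, 4.17% and 3.27%, lay above all 3 p19-/- mice at this limit. That order was lost with at least 3 members, where WT 2 was at 3.27% and p19-/- 3 at 3.52%, with at least 8 members (2.61% and 2.82%), and with doublets kept (1.99% and 2.80%). In CD8 T-like cells the share was 2.04%, 0% and 6.82% in the p19-/- mice, compared with 0% and 2.27% in the WT mice, on 5 cells in all, with upper limits of 6.82% in p19-/- 2 and 5.88% in WT 1. These 5 cells held 3716 CPM of CD8 T markers against 12636 CPM in the other CD8 T-like cells, at medians of 29930 and 5576 UMIs. In p19-/- 3 the whole class held 6865 CPM of these markers, against 12723 to 16082 CPM in the other mice. Its 46 cells became 22 with cell cycle genes kept in the clustering, so the class name is less certain there. The share in macrophage or monocyte-like cells, read as background, was 2 of 105 cells at a median of 2947 UMIs in the other cells. Over all mice the T cell classes had 12 of 957 Tfh-like, 33 of 813 Treg-like, 17 of 697 effector CD4-like and 5 of 232 CD8 T-like cells. The Tfh-like share was thus below this background and the effector CD4-like and CD8 T-like shares were close to it. A background of 2 cells is itself imprecise.

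The mitosis-like T cells held few B cell transcripts. The 62 mitosis-like CD4 T-like cells (Tfh-like, Treg-like and effector CD4-like together) held 41.3 CPM of the 4 pan-B markers. The other CD4 T-like cells held 43.9 CPM of them and mitosis-like GC B-like cells 3205 CPM. The 5 pan-T markers were at 4786 CPM, against 7813 CPM in the other CD4 T-like cells. Subset markers were lower too in mitosis-like cells: Treg markers at 1821 against 3569 CPM in Treg-like cells, and Tfh markers at 4433 against 6645 CPM in Tfh-like cells. A heavy chain was read for 2 of the 62 cells. Within Treg-like cells, 1 cell gave 79.0% of all member UMIs in p19-/- 2, so values of T cell classes rest on few cells.

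By genotype, no mitotic gene was called in GC B-like cells, but nearly all were lower in the sums of p19-/- mice. edgeR's quasi-likelihood test on UMI sums per mouse, adjusted by Benjamini-Hochberg over all genes, called 0 of 34 members at 0.05, against 0.019% of the 10508 genes tested (2 genes). At an unadjusted p under 0.05 there were 14 members, beside 871 of 10508 genes. DESeq2 called 1, beside 52 of 10508 genes, and the fit with no filter on low counts called 2, beside 204 of 15852. The log2 fold change was negative for 33 of 34 members and for 48.8% of all genes. The median was -0.24 over the members and 0.01 over all genes, and without WT 2 the members' median was -0.14. In a sum over cells, fewer dividing cells and less RNA per dividing cell cannot be told apart.

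**Figure D2:**
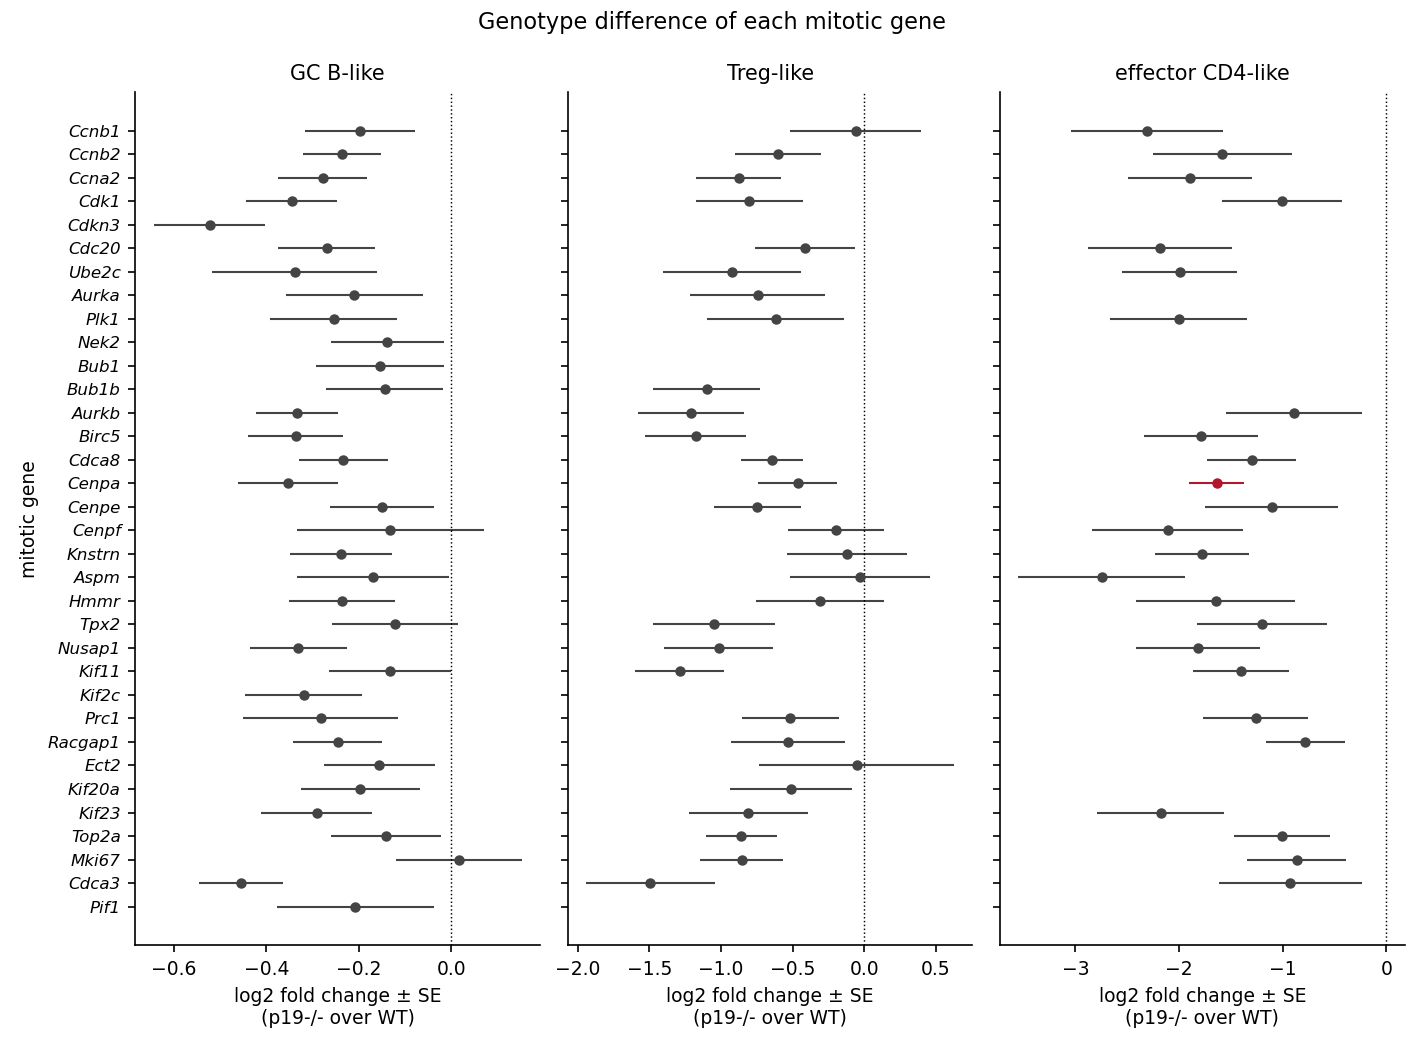
Log2 fold change (p19-/- over WT, horizontal axis, own scale per panel) ± SE of each mitotic gene in GC B-like, Treg-like and effector CD4-like cells, ordered by role; red marks an adjusted p under 0.05 and a missing point a gene not tested. In GC B-like cells the values lie between -0.52 and 0.02 and none is red; Cenpa is the only red point, in effector CD4-like cells.

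Cdkn3, which removes an activating phosphate from cyclin-dependent kinases, had the most negative value. Its level was 56.3, 48.4 and 60.7 CPM in p19-/- 1, 2 and 3 and 76.2 and 80.6 CPM in WT 1 and 2. All p19-/- mice lay below both WT mice, with a log2 fold change of -0.52 ± 0.12 (SE) and an adjusted p of 0.361 in edgeR. Cdca3, an adaptor of a ubiquitin ligase that permits entry into mitosis, was at 183, 165 and 167 CPM in the p19-/- mice and at 221 and 242 CPM in the WT mice. Its groups did not overlap either, and its log2 fold change was -0.45 ± 0.09 with an adjusted p of 0.287 in edgeR. Cdca3 was the member called by DESeq2, and Cdca3 and Cdkn3 were those called with no filter.

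Ccnb2, a mitotic cyclin, was at 186, 192 and 181 CPM in the p19-/- mice, compared with 206 and 226 CPM in the WT mice. Ccna2, the cyclin of S phase and early mitosis, was at 232, 218 and 208 CPM against 242 and 280 CPM. The groups of both cyclins did not overlap, with log2 fold changes of -0.24 ± 0.08 and -0.28 ± 0.10 (adjusted p of 0.529 and 0.518 in edgeR). All 5 cyclin and Cdk1 genes were negative, between -0.52 and -0.20.

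Birc5 (survivin), the chromosomal passenger that targets Aurora B to centromeres, was at 292, 255 and 302 CPM in p19-/- 1, 2 and 3 and at 341 and 362 CPM in the WT mice. Cdca8 (borealin), from the same complex, was at 269, 234 and 260 CPM against 284 and 303 CPM. Both were lower in every p19-/- mouse, at -0.34 ± 0.10 and -0.23 ± 0.10 (adjusted p of 0.496 and 0.593 in edgeR). Ube2c, the ubiquitin-conjugating enzyme of the anaphase-promoting complex, overlapped: 510, 321 and 411 CPM in the p19-/- mice, compared with 483 and 546 CPM in the WT mice, a change of -0.34 ± 0.18.

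Of the genes of chromosome structure, Top2a, the topoisomerase that untangles sister chromatids, was at 597, 480 and 598 CPM in the p19-/- mice, compared with 587 and 624 CPM in the WT mice. Mki67, the coat protein of mitotic chromosomes and the usual proliferation marker, was at 901, 655 and 826 CPM against 760 and 783 CPM. Their groups overlapped, with log2 fold changes of -0.14 ± 0.12 and 0.02 ± 0.14, and Mki67 was the single member above 0, though it was below 0 with sex as a covariate or with the replicate block.

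**Figure D3:**
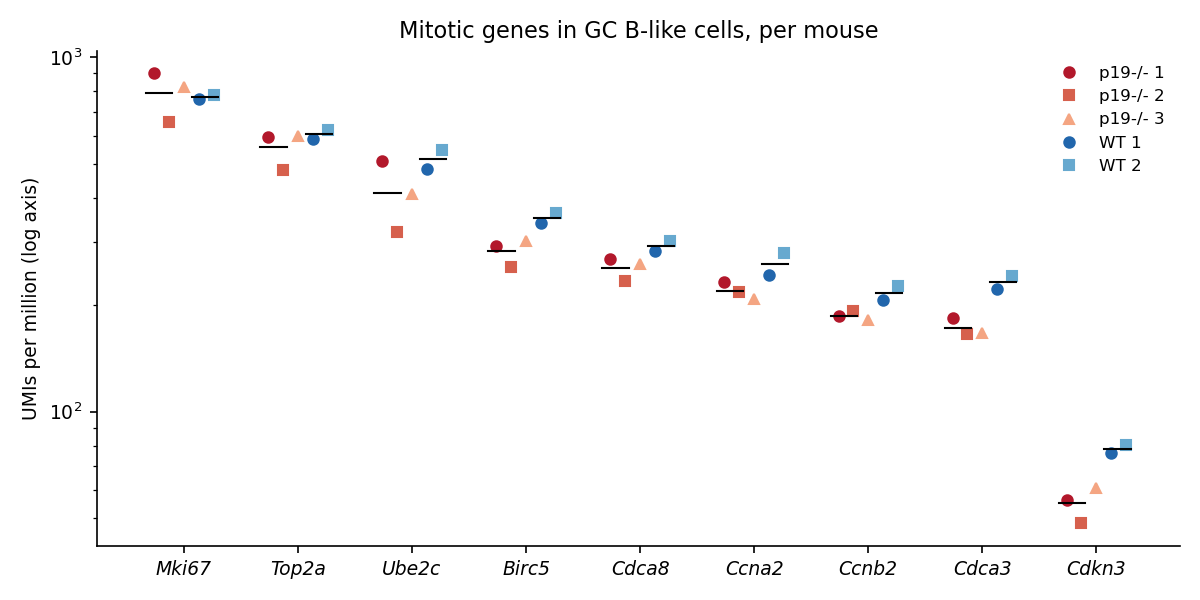
Level (CPM, logarithmic axis) in GC B-like cells of each mouse for the 8 members with most UMIs and for Cdkn3; black lines are group means of 3 p19-/- and 2 WT mice. The p19-/- points of Birc5, Cdca8, Ccna2, Ccnb2, Cdca3 and Cdkn3 lie below both WT points, and those of Mki67, Top2a and Ube2c overlap with WT.

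In all, 15 of 34 members were lower in every p19-/- mouse than in both WT mice and 0 were higher in every one, against 10.8% and 16.2% of all genes tested. By role the medians ran from -0.33 for chromosomal passengers and -0.30 for the anaphase-promoting complex to -0.15 for kinases and checkpoint and -0.06 for chromosome structure. The other 25 members outside the 9 described above lay between -0.35 (Cenpa) and -0.12 (Tpx2). Of 65 other mitotic genes, 0 passed in either direction and 60 were negative with a median of -0.21, while of 29 S phase genes 0 passed and 20 were negative with a median of -0.07. Of 10 cell cycle brakes, 0 passed and 4 were negative. GC B marker genes summed to 2113 to 2947 CPM in p19-/- and 2732 to 2788 CPM in WT mice, and the 5 pan-T markers to 147 to 166 CPM in p19-/- and 129 to 133 CPM in WT mice, all 5 detected. Plasma cell markers, 8 of 8 detected, summed to 1791 to 2139 CPM in p19-/- and 2232 to 2294 CPM in WT mice. The pan-T sums were thus higher and the plasma cell sums lower in every p19-/- mouse, and their part in the member values was not tested.

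Among T cells, Cenpa, the histone H3 variant that marks centromeres, fell in the effector CD4-like cells of p19-/- mice. It was at 24.4, 23.4 and 47.3 CPM in p19-/- 1, 2 and 3 and at 108 and 93.4 CPM in WT 1 and 2. The groups did not overlap, and the log2 fold change was -1.64 ± 0.27 with an adjusted p of 0.0092 in edgeR. Cenpa was 1 of 25 members tested that was called, against 0.629% of the 6993 genes tested. It was not called without p19-/- 2 or without WT 1, where its log2 fold change was -1.45 and -1.53.

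All 25 tested members were negative in effector CD4-like cells, with a median of -1.64 against 0.00 over all genes, and 16 were lower in every p19-/- mouse, against 11.4% of all genes (0 were higher in every one, against 15.3%). The other 9 members did not pass the filter on low counts. Aspm, a spindle pole protein, had the most negative value, -2.74 ± 0.81 (adjusted p of 0.191 in edgeR), with 0, 0 and 6.52 CPM in p19-/- 1, 2 and 3 and 19.6 and 16.5 CPM in the WT mice. Ccnb1, the main mitotic cyclin, had 0, 0 and 11.4 CPM against 23.2 and 22.0 CPM. The p19-/- 3 mouse, the single male, thus lay between the other p19-/- mice and WT. Without p19-/- 3 there were 22 of 24 members called with a median of -3.89, beside 95 of 6665 genes. With sex as a covariate 23 of 25 were called, beside 106 of 6993 genes, and with the replicate block 7, beside 23 of 6993. Because p19-/- 3 is the only male and the only replicate 3, the genotype difference in both fits rests on the other mice. They are thus no separate check beside leaving p19-/- 3 out. Without p19-/- 2 or WT 1 there were 0. Member UMIs numbered 45 and 98 in p19-/- 1 and 2, 643 in p19-/- 3 and 1157 and 852 in WT 1 and 2, and 17 mitosis-like cells stood behind them. Of 23 other mitotic genes tested 0 passed and 19 were negative, and of 22 S phase genes 0 passed and 17 were negative. Tfh markers summed to 2807 to 3750 CPM in p19-/- and 2073 to 2579 CPM in WT effector CD4-like cells, and Treg markers to 1660 to 1787 against 1197 to 1315 CPM, all 8 of each list detected. Effector CD4 markers (9 of 9 detected) summed to 3987 to 4598 against 3426 to 3561 CPM, pan-T markers (5 of 5) to 7019 to 7416 against 6075.6 to 6604.4 CPM, naive T markers (4 of 4) to 619.6 to 749.6 against 535 to 594 CPM, and Cd4 to 497 to 599 against 400 to 473 CPM. All 6 were thus higher in every p19-/- mouse, and their part in the member values was not tested.

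In Treg-like cells 0 of 29 tested members were called, against 0.584% of 8226 genes, with 13 at an unadjusted p under 0.05 and 0 by DESeq2. The share of all genes at that unadjusted level is not given, so the 13 are not read as a result about the members. All 29 were negative with a median of -0.74, and 11 were lower in every p19-/- mouse, against 12.4% of all genes, while 0 were higher in every one, against 11.6%. Kif11, the motor that pushes spindle poles apart, came closest, at 18.1, 16.7 and 15.3 CPM in p19-/- 1, 2 and 3 and 49.6 and 32.1 CPM in WT 1 and 2. Its log2 fold change was -1.29 ± 0.31 with an adjusted p of 0.0973 in edgeR. Without WT 2 there were 5 members called, beside 45 of 8312 genes, with the replicate block 9, beside 93 of 8226, and without a filter on low counts 10, beside 211 of 14071. Without WT 1 the median was -0.24 and 19 of 28 were negative. Of 38 other mitotic genes 0 passed and 35 were negative, and of 27 S phase genes 0 passed and 25 were negative. Tfh markers (8 of 8 detected) summed to 2588 to 3446 CPM in p19-/- and 2199 to 2246 CPM in WT Treg-like cells, and GC B markers (9 of 9) to 224 to 248 against 169.9 to 194.6 CPM. Both were higher in every p19-/- mouse, and their part in the member values was not tested.

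Over all CD4 T-like cells 0 of 33 members were called, against 0.47% of 10006 genes, with 6 at an unadjusted p under 0.05 and 0 by DESeq2. Those 6 stand without a share of all genes and are not read as a result about the members. All 33 were negative with a median of -0.68, which was -1.63 without p19-/- 3 and -0.32 without WT 1. Lower in every p19-/- mouse were 3 (Bub1b, Kif23 and Kif11), against 13.3% of all genes, and higher in every one 0, against 13.6%. The replicate block called 21, beside 178 of 10006 genes.

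In Tfh-like cells most values were positive. Of 19 members tested, 0 were called, against 0.483% of 8068 genes, with 0 at an unadjusted p under 0.05 and 0 by DESeq2. The log2 fold change was positive for 16, from -0.40 (Aurkb) to 1.06 (Cenpf), and the median of 0.34 became -0.08 with sex as a covariate and -0.30 with the replicate block. In 0 members did all p19-/- mice lie below or above both WT mice, against 12.8% and 10.7% of all genes. Without p19-/- 2, whose 82 member UMIs were fewest, 1 member was called, and the share of all genes in that fit is not given. The difference between classes was tested as an interaction: 0 of 34 members differed between GC B-like and Tfh-like cells by genotype, against 0.0189% of 10593 genes, with 2 at an unadjusted p under 0.05 and 0 by DESeq2. Without p19-/- 2 there were 2 called. For this count and the 2 at an unadjusted p, the share of all genes is not given, so neither is read as a result. Differences between GC B-like cells and the other classes were not tested.

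In mature non-GC B-like cells 0 of 33 members were called, against 0.0531% of 7537 genes, with 3 at an unadjusted p under 0.05 and 0 by DESeq2. These 3 also stand without a share of all genes at that level. A negative value was seen for 32, with a median of -0.50, but without WT 2 it was 0.11 with 10 of 31 negative, and with cell cycle genes kept in the clustering 0.26 with 8 of 27 negative. Lower in every p19-/- mouse were 3 (Ect2, Cenpe and Cdca3), against 9.08% of all genes, and higher in every one 0, against 11.3%. In CD8 T-like cells 8 members passed the filter and 0 were called, as were 0% of 4349 genes, of which 171 had an unadjusted p under 0.05 and 4 were called by DESeq2. All 8 were positive, from 0.17 to 2.87, and without p19-/- 3 the median was -0.02 over 3 members. In 0 of the 8 did all p19-/- mice lie below or above both WT mice, against 9.63% and 9.43% of all genes. Plasma cell-like cells were not tested, because p19-/- 1 and 2 had 19 and 14 such cells. Mki67 was at 220, 273 and 320 CPM in plasma cell-like cells of p19-/- 1, 2 and 3 and at 136 and 253 CPM in WT 1 and 2, overlapping.

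Dark zone cells held more of every mitotic gene. Within each mouse, GC B-like cells were ranked by dark zone genes (such as Cxcr4 and Foxo1) against light zone genes (such as Cd83, Cd86 and Nfkbia), none of them a member, and the upper and lower terciles were compared with mouse as a block. All 34 members rose in the dark tercile in edgeR at an adjusted p under 0.05, against 21.2% of 8895 genes that rose (43.1% were called in either direction). The median log2 fold change was 0.95. After thinning cells to 2000 UMIs, 25 of 31 tested members rose with a median of 0.75. The share of all genes that rose after thinning is not given, so this count stands without a background. The mitosis-like share was 58.5% ± 5.76 (SD, n = 5) in the dark tercile and 48.2% ± 7.74 in the light tercile, and it was higher in the dark tercile in each of the 5 mice.

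Cdkn3 rose most, from 24.6, 24.4, 31.5, 38.1 and 40.9 CPM in the light tercile of p19-/- 1, 2, 3 and WT 1, 2 to 108, 88.8, 96.6, 123 and 138 CPM in the dark tercile. The terciles did not overlap, with a log2 fold change of 1.78 ± 0.09 and an adjusted p of 2.33e-08 in edgeR. Cenpf, a kinetochore protein that accumulates in G2, was at 121 ± 28.5 CPM (SD, n = 5) in the light and 292 ± 42.3 CPM in the dark tercile, a log2 fold change of 1.30 ± 0.08. Nek2, the kinase that splits centrosomes, rose by 1.22 ± 0.09, Nusap1, a microtubule bundler, by 1.18 ± 0.08, Cdc20, the activator of the anaphase-promoting complex, by 1.17 ± 0.08, Ccnb2 by 1.11 ± 0.07, Cenpe, the kinetochore motor, by 1.04 ± 0.07, and Cdca8 by 0.78 ± 0.05. Top2a and Ccna2 rose least, by 0.41 ± 0.06 and 0.45 ± 0.07. Of 65 other mitotic genes 54 rose and 1 fell. S phase genes did not follow: of 29, 1 rose (Pola1) and 16 fell, with a median of -0.18.

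The members also differed in the S phase transcripts of the cells that held them. In thinned GC B-like cells, those with a UMI of Pif1, a DNA helicase, held 4.36 ± 1.08 S phase UMIs per 2000 (SD, n = 5 mice) and those with Cdkn3 held 5.04 ± 0.853. Cells with Cdc20 held 5.65 ± 0.473 and those with Cenpa 5.79 ± 0.363. At the other end were cells with Mki67 at 8.32 ± 1.14, with Aurkb, the kinase of the chromosomal passengers, at 8.48 ± 0.976 and with Top2a at 9.38 ± 1.32. Most neighbours in this order overlapped within their spread over mice, and both ends of it did not. Across the 34 members, which share cells and depth, the zone fold and the S phase UMIs had Pearson's r of -0.746 and Spearman's rho of -0.679, a description without a test. Mki67 was in 80.5% ± 4.61 of mitosis-like cells, Top2a in 68.9% ± 6.14, and Kif2c, a microtubule depolymerase, in 10.0% ± 1.42.

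**Figure D4:**
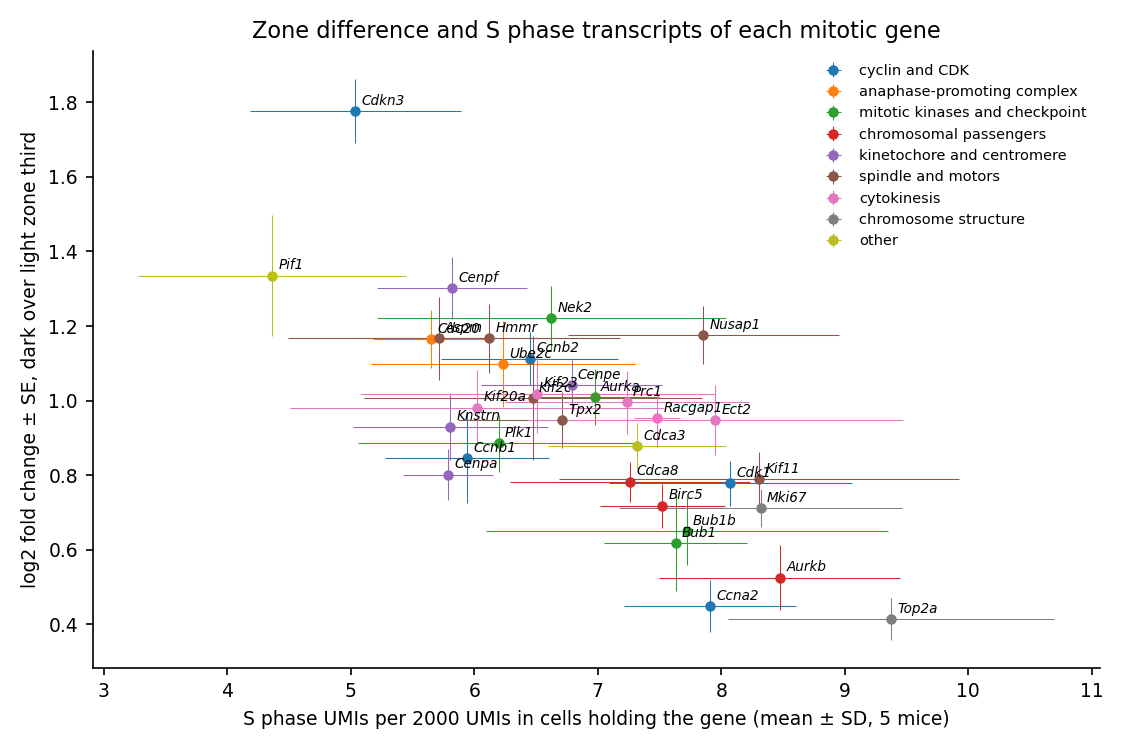
Log2 fold change ± SE of each mitotic gene between dark and light zone terciles of GC B-like cells (vertical axis) against the mean ± SD over 5 mice of S phase UMIs per 2000 UMIs in cells holding that gene (horizontal axis), coloured by role. Cdkn3 and Pif1 lie at the upper left and Top2a at the lower right; all folds are above 0.

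Mitosis-like GC B-like cells differed from the other GC B-like cells in genes outside the list. In thinned counts summed per mouse and state, with mouse as a block, 660 of 5323 other genes rose (12.4%) and 1314 were called in either direction (24.7%) by edgeR, against 506 by DESeq2 and 855 without WT 1. Of 65 other mitotic genes 54 were tested and 52 rose. Foxm1, the transcription factor of late cell cycle genes, was at 62.2 ± 20.3 CPM (SD, n = 5) in mitosis-like and 4.87 ± 7.10 CPM in other cells, a log2 fold change of 3.95 ± 0.34, and Kif22, a chromosome arm motor, was at 128 ± 17.4 against 7.84 ± 3.26 CPM. Among the largest folds were those of Kif22, Spag5, Foxm1, Ckap2l, Kif18b, Sgo2a, Hist1h2ap, Gtse1 and Sapcd2, from 3.99 to 3.53, each higher in all 5 mice, and 7 of them were on the list of other mitotic genes. Of 28 S phase genes tested, 11 rose and 3 fell. Light zone genes fell: Cd83 was at 192 ± 31.3 against 411 ± 72.2 CPM (-1.11 ± 0.08), Cd86 at 20.6 ± 8.78 against 59.7 ± 28.0 CPM (-1.56 ± 0.23) and Il4i1 at 53.1 ± 24.8 against 147 ± 35.0 CPM (-1.52 ± 0.16). Each of these was lower in all 5 mice except Cd86, which was higher in 1. Cd83 was named after its values were seen, and the members themselves, which define the state, are not compared.

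The state also divided the GC B-like clusters, as a description, since the clusters come from the same cells. The cluster with GC B markers among its leading genes had 15.01% ± 2.07 mitosis-like cells (SD, n = 5), and the other 3 clusters had 65.1% ± 5.15, 65.6% ± 3.44 and 75.3% ± 4.48. Cells holding no member UMI had 3.79 ± 0.408 S phase UMIs per 2000 and other cells under the limit as a whole 6.93 ± 0.650, against 7.94 ± 0.884 in mitosis-like cells. Mitosis-like cells had a median of 13774 UMIs before thinning and the other GC B-like cells 7703.

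The mitosis-like share was also read by isotype, taken from the heavy chain of each GC B-like cell in the separate receptor library. Differences from IgM had mixed signs over mice and were not tested. The share was 56.1% ± 3.07 (SD, n = 5) in IgM cells, 57.9% ± 11.3 in IgG1, 53.2% ± 13.6 in IgG2b and 55.2% ± 6.31 in IgG2c cells. IgG1 minus IgM was 1.77 ± 9.69 percentage points (SD, n = 5) and was positive in 3 of 5 mice. IgG2b minus IgM was -2.88 ± 11.04 points, positive in 2 of 5, and IgG2c minus IgM -0.955 ± 3.86 points, positive in 1 of 5. Each mean difference was smaller than its spread over mice at this limit. With at least 8 members IgG1 minus IgM was 3.63 ± 3.32 points and positive in 5 of 5 mice, and with at least 3 members IgG2b minus IgM was -7.23 ± 6.70 points and positive in 1 of 5. IgG3 cells numbered 85, with 51 mitosis-like, and ranged from 52.9% to 100% with a single cell in p19-/- 1. GC B-like cells without a heavy chain had a lower share than IgM cells in all 5 mice. It was 46.9%, 44.1% and 45.5% in the p19-/- mice, compared with 31.1% and 41.9% in the WT mice. IgM cells of the same mice were at 57.1%, 53.6%, 52.6%, 57.0% and 60.2%. Against switched cells this did not hold in every mouse. In p19-/- 2 IgG1 and IgG2b cells were at 40.8% and 37.0%, and in p19-/- 3 IgG2b cells were at 44.0%. The median depth of cells without a heavy chain was 5255 to 12367 UMIs, against 9676 to 21498 UMIs of IgM cells.

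**Figure D5:**
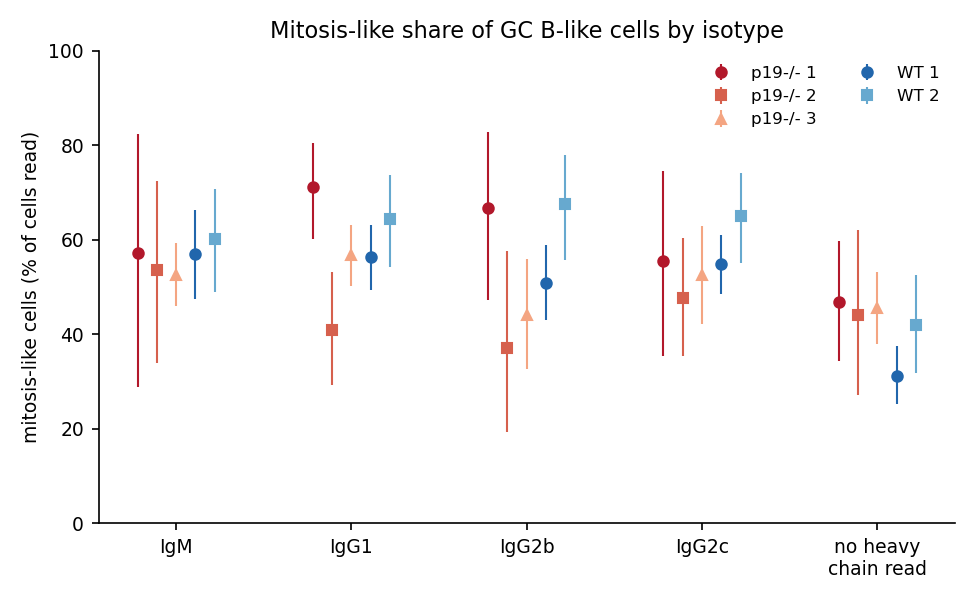
Share of mitosis-like cells (percent, vertical axis from 0) among GC B-like cells of each isotype and among those with no heavy chain read, per mouse, with 95% exact binomial intervals. IgM, IgG1, IgG2b and IgG2c overlap. Cells without a heavy chain lie between 31.1% and 46.9%, below IgM in each mouse but not below IgG1 or IgG2b in every mouse.

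By genotype the isotype differences overlapped with at least 5 members, but not at every limit. IgG2b minus IgM was 9.52, -16.5 and -8.61 points in p19-/- 1, 2 and 3 and -6.09 and 7.33 points in WT 1 and 2. Signs of this difference varied within each genotype, while IgG2c minus IgM was negative in all 3 p19-/- mice. With at least 3 members IgG2b minus IgM was -9.52, -12.3 and -10.6 points in p19-/- and -8.17 and 4.44 points in WT mice. IgG2c minus IgM was then -18.8, -9.65 and -3.09 against -0.328 and 2.94 points. Every p19-/- mouse also lay below both WT mice for IgG2c with at least 8 members, and for both isotypes without thinning. IgG1 overlapped at these settings, and none of this was tested. Among mitosis-like cells with a heavy chain, 36.3% ± 12.5 (SD, n = 5) were IgG1, 24.7% ± 9.83 IgG2c, 18.6% ± 9.39 IgM and 15.9% ± 5.56 IgG2b. Among the other GC B-like cells the same isotypes took 33.7% ± 7.46, 25.6% ± 7.31, 19.3% ± 10.4 and 17.5% ± 3.44. Each isotype's mean share thus differed between the states by less than its spread over mice, though both states come from the same mice. Within mice, IgG1 took 57.3%, 30.9%, 37.8%, 28.2% and 27.2% of mitosis-like cells in p19-/- 1, 2, 3 and WT 1, 2. Of the other cells it took 44.4%, 37.2%, 33.4%, 26.2% and 27.5%. For each of these isotypes the within-mouse difference was positive in some mice and negative in others.

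Birc5 was the 1 of 34 members called between IgG1 and IgM cells, against 0.963% of 7896 genes called in either direction and 0.279% called as higher in IgG1. It was at 245, 195, 283, 345 and 302 CPM in IgM cells of p19-/- 1, 2, 3 and WT 1, 2 and at 355, 272, 344, 395 and 391 CPM in their IgG1 cells. IgG1 was higher in each mouse, although the ranges overlapped, and the log2 fold change was 0.35 ± 0.07 with an adjusted p of 0.0411 in edgeR. It was not called without any 1 of the 5 mice, where the log2 fold change lay between 0.31 and 0.41. A positive value was seen for 33 of 34 members, with a median of 0.19. Top2a came next, at 0.29 ± 0.06 with an adjusted p of 0.0646 in edgeR. Of 65 other mitotic genes 64 were tested, 0 passed and 61 were positive. IgM in p19-/- 1 rested on 15 cells.

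IgG2c cells had 0 members called against IgM, beside 0.272% of 7732 genes, with 8 at an unadjusted p under 0.05 and 0 by DESeq2. The share of all genes at an unadjusted p is not given for IgG2c or IgG2b, so such counts are not read as results. The log2 fold change was positive for 26, most of all for Bub1, the checkpoint kinase, at 0.52 ± 0.16. IgG2b cells had 0 called, beside 0.241% of 7462 genes, with 1 at an unadjusted p under 0.05 and 0 by DESeq2. There 13 were positive and 21 negative, from -0.26 to 0.22 with a median of -0.05. Birc5 was at 0.30 ± 0.09 in IgG2c and 0.19 ± 0.10 in IgG2b cells. The 3 comparisons share their IgM cells, and whether they differ from each other was not tested.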

How the data were processed

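RNA and B cell receptor libraries of 5 spleens were measured. The authors deposited raw UMI counts per gene and barcode, not normalized, and receptor contig tables with heavy chain calls and UMI counts; per the submitters' processing notes, Cell Ranger 3.0.2, STAR and mm10 were used. A UMI tags a molecule near its 5′ end, so no length correction was made and levels were not ranked between genes as molecule numbers.

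The 34 members and all lists were chosen with earlier results of these data known. Of 11355 barcodes, 1907 with over 10% mitochondrial UMIs and others with under 200 genes were removed. Scrublet in scanpy 1.11.5 (Python 3.11.15) marked 28 doublets by its own threshold, so the 156 highest scores (0.8% per 1000 cells) were removed, leaving 9200 cells. Clusters (2000 variable genes, 20 components, 20 neighbours, leidenalg 0.10.2, resolution 1, 255 cell cycle and zone genes left out) were named from markers, so class names are rebuilt, not the authors'. Cells were thinned to 2000 UMIs for the mitosis-like state. A count of 0 was given its upper limit as 3 cells of the total.

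UMI counts were summed per mouse and class and tested with edgeR 4.0.16 (R 4.3.3; TMM, filterByExpr, quasi-likelihood F test, Benjamini-Hochberg over all genes tested, threshold 0.05) where each mouse had at least 20 cells, or 15 for isotypes; SE is the log2 fold change over the root of F. DESeq2 1.42.0 was an alternative. Tests were checked on simulated counts. Shares and summed levels over the members carry no p-value, although permutation tests had been planned. Mice were separate animals per the labels. Members named with full values are the 8 with most UMIs in GC B-like cells, those called (up to 8 per comparison), and those with the extreme genotype changes in GC B-like cells. Other genes are from the 10 with the largest folds by state, and some are not reported here. Others were named after their values were seen.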

Additional observations from a re-analysis of the deposited data

How the results depend on the processing

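Members called in the genotype comparisons changed with the processing. With no filter on low counts, 2 were called in GC B-like, 17 in CD4 T-like, 1 in Tfh-like, 10 in Treg-like, 18 in effector CD4-like and 5 in CD8 T-like cells, 5 in IgG1 and 2 in IgG2c against IgM, and 2 in the interaction. This fit also tests members that the filter removes. For it, the share over all genes stands above for GC B-like and Treg-like cells only. Counts in this section that have no such share above are not read as results about the members. DESeq2 called 1 in GC B-like cells and 506 other genes by state, against 1314. Sex as a covariate called 1 in CD4 T-like and 23 in effector CD4-like cells. Without the mouse block IgG1 had 0. Leaving out each mouse gave 0 to 1 in CD4 T-like, 0 to 1 in Tfh-like, 0 to 5 in Treg-like, 0 to 22 in effector CD4-like cells, 0 to 2 in the interaction, 0 to 0 for IgG1, and 855 to 1349 other genes by state. Where 1 WT mouse was left, it is assumed to vary like the p19-/- mice. The cause was not tested.

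Replicate numbers 1 and 2 occur in both genotypes, and the labels do not tie them together. Deviations of same-numbered mice correlated at -0.049 and 0.047 in GC B-like cells. With 2 WT mice the deviations of WT 1 and WT 2 mirror each other, and p19-/- 1 correlated with WT 2 at 0.049. These values therefore cannot show whether same-numbered mice share more than a number. The replicate block called 2 members in mature non-GC B-like, 21 in CD4 T-like, 9 in Treg-like and 7 in effector CD4-like cells, and 0 in GC B-like, Tfh-like and CD8 T-like cells.

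For Mki67 in GC B-like cells, 0.0165 became -0.0248 with sex as a covariate, -0.0434 with the replicate block, and ranged from -0.0797 to 0.144 when a mouse was left out. IgG2c minus IgM in mitosis-like share, -0.955 points, was -5.78 with at least 3 members and -6.77 at 1000 UMIs with at least 3 members. By genotype, p19-/- minus WT in share was -2.16 points in GC B-like cells and ranged from -7.56 to 3.23 when a mouse was left out. In mature non-GC B-like cells it was -2.44, but -5.87 without WT 1, 0.981 without WT 2 and 0.549 with cell cycle genes kept in the clustering. In CD8 T-like cells it was 1.82, but -0.116 without p19-/- 3 and -1.25 with those genes kept. All 34 members rose in the dark zone tercile under DESeq2, with no filter and without each mouse. Genotype fits in plasma cell-like cells were not run, since 2 mice had too few cells, nor were CD4 T-like fits with cell cycle genes kept in the clustering, where no effector CD4-like cluster was named. The number of mitosis-like cells limits precision: 12 Tfh-like, 17 effector CD4-like and 5 CD8 T-like cells were read.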

Other observations

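Mitosis-like cells also stood outside the named lymphocyte classes. An unnamed B cluster with a median of 774 UMIs per cell, led by Prss34 and Mcpt8 and with histone genes among its leading genes, had 46 mitosis-like cells among the 71 deep enough to read. Of these 71 cells 46.5% held 8 or more members, against 37.1% of GC B-like cells. The unnamed B cluster led by Sox4 and Pcp4 had 55 of 275, of which 52 came from p19-/- 1. Erythroid-like cells had 5 of 18 and neutrophil-like cells 4 of 23. These clusters were in no comparison.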
